A study of Mus musculus with 3 samples.

Results

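Apolipoprotein E (apoE), other apolipoproteins and their receptors were followed here through 9 genes, taken by symbol from the 32285 genes in the deposited tables: Apoe, Apoc1, Apoc2, Lrp1, Lrp5, Lrp6, Sorl1, Scarb1 and Trem2. Each symbol matched 1 gene. The cells came from brains of Apoe knockout mice, the genotype of every group including the controls, and were sorted by flow cytometry as CD45int CD11b+, the usual gate for microglia. All were taken on day 4, and each group is 1 library from the pooled brains of 4 mice. The groups were sham induction + PBS, NMOSD induction + a control peptide (NMOSD commonly stands for neuromyelitis optica spectrum disorder, in which antibodies attack optic nerve and spinal cord), and NMOSD induction + APOE130-149, whose name gives residues 130 to 149 of apoE. They are called sham, control peptide and APOE130-149 below. The sources used here do not give age, strain, sex, the knockout allele, the control peptide's sequence, or the dose and route of either peptide. Sham differs from the control peptide group both in induction and in PBS against peptide, which this design cannot tell apart.

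ApoE is a secreted protein that coats lipid particles and carries them to receptors of the low-density lipoprotein receptor family, which take the particles up. In the brain it is made mainly by astrocytes, and macrophages and reactive microglia make it too. ApoC-I and apoC-II are small apolipoproteins that move between particles: apoC-I hinders receptor-mediated uptake and apoC-II is the cofactor of lipoprotein lipase. Lrp1 is a large endocytic receptor of apoE, Lrp5 and Lrp6 are co-receptors of Wnt signalling, Sorl1 is a sorting receptor, Scarb1 is a receptor of high-density lipoprotein, and Trem2 is a lipid-sensing receptor of microglia that signals through Tyrobp.

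In GRCm38 (the assembly of mm10), Apoe (ENSMUSG00000002985) lies on the minus strand of chromosome 7 from 19696109 to 19699188. Its neighbours there are Apoc1 (ENSMUSG00000040564, 19689481 to 19692660), 3448 bp away, and Apoc2 (ENSMUSG00000002992, 19671579 to 19677941), 18167 bp away. The receptors lie on other chromosomes, Lrp1 (ENSMUSG00000040249) on 10 from 127538161 to 127621148, Lrp5 (ENSMUSG00000024913) on 19 from 3584828 to 3686564, and Lrp6 (ENSMUSG00000030201) on 6 from 134446476 to 134566965. Sorl1 (ENSMUSG00000049313) is on chromosome 9 from 41964720 to 42124297, Scarb1 (ENSMUSG00000037936) on 5 from 125277087 to 125341094, and Trem2 (ENSMUSG00000023992) on 17 from 48346401 to 48354147. Lrp1 and Sorl1 each overlap an antisense gene, Gm16217 and Gm16214, and the sources used here do not say whether counting used strand, so their UMIs may include some of these partners.

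Promoter windows of 250 bases before to 50 after the transcript start were held by the RefSeq table (GRCm38.p6) for 5 of the 9 genes. Those of 4 genes are shown, because these genes had their highest levels in different cell types: Apoe in border-associated macrophages, Apoc2 in monocytes, Trem2 in microglia and Sorl1 in neutrophils. They are the windows chr7:19699139-19699438 (minus strand), chr7:19677892-19678191 (minus), chr17:48346151-48346450 (plus) and chr9:42124248-42124547 (minus), in this order. Capitals mark matches on either strand to 3 sequences: GAGGAA, a core bound by the macrophage factor PU.1, AGGTCA, the core bound by many nuclear receptors, and GGGCGG, the GC box.
Apoe: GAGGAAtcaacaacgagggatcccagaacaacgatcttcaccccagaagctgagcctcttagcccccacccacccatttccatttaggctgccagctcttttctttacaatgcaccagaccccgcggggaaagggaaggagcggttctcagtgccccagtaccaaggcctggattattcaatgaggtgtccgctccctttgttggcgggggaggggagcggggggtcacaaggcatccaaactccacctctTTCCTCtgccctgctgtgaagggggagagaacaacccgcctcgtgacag
Apoc2: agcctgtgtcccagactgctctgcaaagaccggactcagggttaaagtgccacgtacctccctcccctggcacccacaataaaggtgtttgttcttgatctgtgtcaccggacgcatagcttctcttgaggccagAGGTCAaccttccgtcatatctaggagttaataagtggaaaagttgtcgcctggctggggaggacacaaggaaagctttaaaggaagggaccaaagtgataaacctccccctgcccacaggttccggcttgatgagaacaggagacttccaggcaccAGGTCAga
Trem2: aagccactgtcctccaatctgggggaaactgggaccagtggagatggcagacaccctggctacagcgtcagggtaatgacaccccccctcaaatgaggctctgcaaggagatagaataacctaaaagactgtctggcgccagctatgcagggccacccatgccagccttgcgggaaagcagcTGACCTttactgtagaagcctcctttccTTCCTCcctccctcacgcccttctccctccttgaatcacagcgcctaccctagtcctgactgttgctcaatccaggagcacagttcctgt
Sorl1: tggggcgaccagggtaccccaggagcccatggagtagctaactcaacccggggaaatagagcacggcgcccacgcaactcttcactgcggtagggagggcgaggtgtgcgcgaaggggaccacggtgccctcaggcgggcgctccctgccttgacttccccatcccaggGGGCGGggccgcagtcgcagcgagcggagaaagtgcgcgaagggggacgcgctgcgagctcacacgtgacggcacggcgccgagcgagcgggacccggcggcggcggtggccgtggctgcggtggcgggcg
The Apoe window held GAGGAA at 2 places, the Apoc2 window AGGTCA at 2 places, the Trem2 window GAGGAA and AGGTCA once each, and the Sorl1 window GGGCGG once. Of all 32851 windows in the table, 28.3% held GAGGAA, 16.3% AGGTCA and 35.7% GGGCGG, so each match is a common one and a description only.

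The libraries held 4674 barcodes and 32712199 unique molecular identifiers (UMIs, each counting 1 captured transcript) in sham, 5306 and 61469677 with the control peptide, and 2175 and 32060750 with APOE130-149. Of 12155 barcodes, 11267 had 500 genes or more and no more than 10% of UMIs from mitochondria, and these were kept as cells. Cell types were gated on how many markers of a list a cell expressed, none of them among the 9 genes. In the order sham, control peptide and APOE130-149, which holds for all series of 3 values below, the gates took 3367, 3899 and 1460 microglia, 9, 10 and 10 border-associated macrophages, 37, 64 and 39 neutrophils, and 23, 44 and 27 monocytes, and left 18.8%, 19.8% and 24.1% of cells ungated. The class called monocytes was gated on markers of monocytes and monocyte-derived macrophages together and does not separate them. Pairs of libraries shared 0 to 9 barcodes, and no cell was left out for it. Median UMIs per microglial cell were 7516, 7548 and 9487. In ungated cells they were 1521, 12703 and 15890. The cells left out were thus shallower than microglia in sham and deeper in both NMOSD libraries, by their medians. Markers of microglia summed to 11960, 12280 and 12734 CPM (counts scaled to a total of 1000000 UMIs) in microglia, against 341 to 424 CPM in neutrophils, 223 to 393 CPM in monocytes and 1502 to 2184 CPM in border-associated macrophages. RNA of choroid plexus and blood differed between libraries: in microglia, Ttr of the choroid plexus stood at 0.824, 93.8 and 68.9 CPM, and the 3 haemoglobin genes together at 0.524, 27.1 and 32.7 CPM.

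Levels are CPM, UMIs of a gene relative to all UMIs of the summed cells of a class. Brackets hold 95% intervals: Poisson for a level, conditional binomial for a ratio and binomial for a share of cells, all exact. They cover counting error only. Each group being 1 library, no difference has a replicate check, and no test was made or p-value computed. Instead, a gene is counted as apart when its level differed at least 1.5-fold with at least 10 CPM in either library, and the share of all genes past the same limit is given beside it.

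The knocked-out gene itself gave UMIs in every library and in all 4 cell types. In microglia Apoe stood at 69.2 CPM [66.1 to 72.4] in sham, 81.6 CPM [78.7 to 84.5] with the control peptide and 94.0 CPM [89.5 to 98.7] with APOE130-149. Sham was lowest and APOE130-149 highest, with intervals that do not overlap. Tags were read at the transcript's 3′ end, and the sources used here do not name the deleted part of the gene, so these UMIs check neither the genotype nor the presence of the protein.

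Across cell types Apoe had the same order in each library: border-associated macrophages, then monocytes, then microglia, then neutrophils, with neighbouring intervals apart each time. Border-associated macrophages, which line the meninges and vessels, held 1204 CPM [981 to 1463] in sham, 796 CPM [599 to 1035] with the control peptide and 1212 CPM [955 to 1517] with APOE130-149. These were 17.4-fold [14.1 to 21.3], 9.75-fold [7.33 to 12.7] and 12.9-fold [10.1 to 16.2] the microglial level. The values rest on 101, 55 and 76 Apoe UMIs, and 9 of 9, 9 of 10 and 8 of 10 of these cells held at least 1. The cell with most Apoe held 29.7%, 20% and 50% of them, and without it the levels were 1011, 750 and 729 CPM, which no longer place APOE130-149 above the control peptide. A wider class that also took cells with more microglial RNA, up to 50% of the microglial marker share instead of 25%, had 15, 23 and 22 cells and 1074, 943 and 1148 CPM of Apoe. With no such limit it had 49, 130 and 64 cells and 365, 344 and 348 CPM.

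Monocytes held 479 CPM of Apoe [409 to 558] in sham, 206 CPM [173 to 242] with the control peptide and 533 CPM [467 to 606] with APOE130-149. The control peptide library was the low one, at a ratio of 0.429 [0.341 to 0.540] to sham, and APOE130-149 stood 2.59-fold above it [2.10 to 3.21]. On the log2 scale the first was -1.22 and ran from -2.17, without cells holding a choroid plexus or haemoglobin UMI, to -0.83, with no limit on microglial RNA. The second was 1.37 and ran from 0.82, without cells over 2 times the median of UMIs, to 1.91, with 1 more marker. The monocytes left by that limit on UMIs were not counted. Much of each level came from single cells, since 1 cell held 27.9%, 35.7% and 51.7% of the Apoe UMIs. Without that cell the levels were 362, 137 and 272 CPM, so that the control peptide library stayed lowest and sham passed APOE130-149. Monocytes with at least 1 Apoe UMI were 52.2% [30.6 to 73.2], 31.8% [18.6 to 47.6] and 63.0% [42.4 to 80.6], with overlapping intervals. They were 40.9%, 20.5% and 37.5% after cells of at least 4000 UMIs were thinned to that number and the others left out. Without cells holding a choroid plexus or haemoglobin UMI, the log2 ratio of monocytes to microglia with the control peptide was 0.26 in place of 1.33. That filter left 1560 of 3899 microglia in this library, and the monocytes it left were not counted.

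Neutrophils, taken as the class in which little Apoe is known to be made, held 1, 6 and 17 Apoe UMIs. Their levels were 2.30 CPM [0.0583 to 12.8], 8.43 CPM [3.09 to 18.4] and 32.2 CPM [18.8 to 51.6]. Relative to P2ry12, a microglial gene, Apoe was 0.0192, 0.107 and 0.447 in neutrophils and 0.0254, 0.0316 and 0.0334 in microglia. Both NMOSD values lay above those of their microglia, from 6 and 17 Apoe UMIs over 56 and 38 P2ry12 UMIs. The sham value rests on 1 UMI and could not be placed. No interval was computed for these values, and with APOE130-149 1 cell held 29.4% of the Apoe UMIs. The part of RNA from other cells in neutrophil Apoe was not tested. Ttr in neutrophils was 0, 57.6 and 37.9 CPM, highest with the control peptide, and its part in the Apoe values was not tested.

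**Figure D1:**
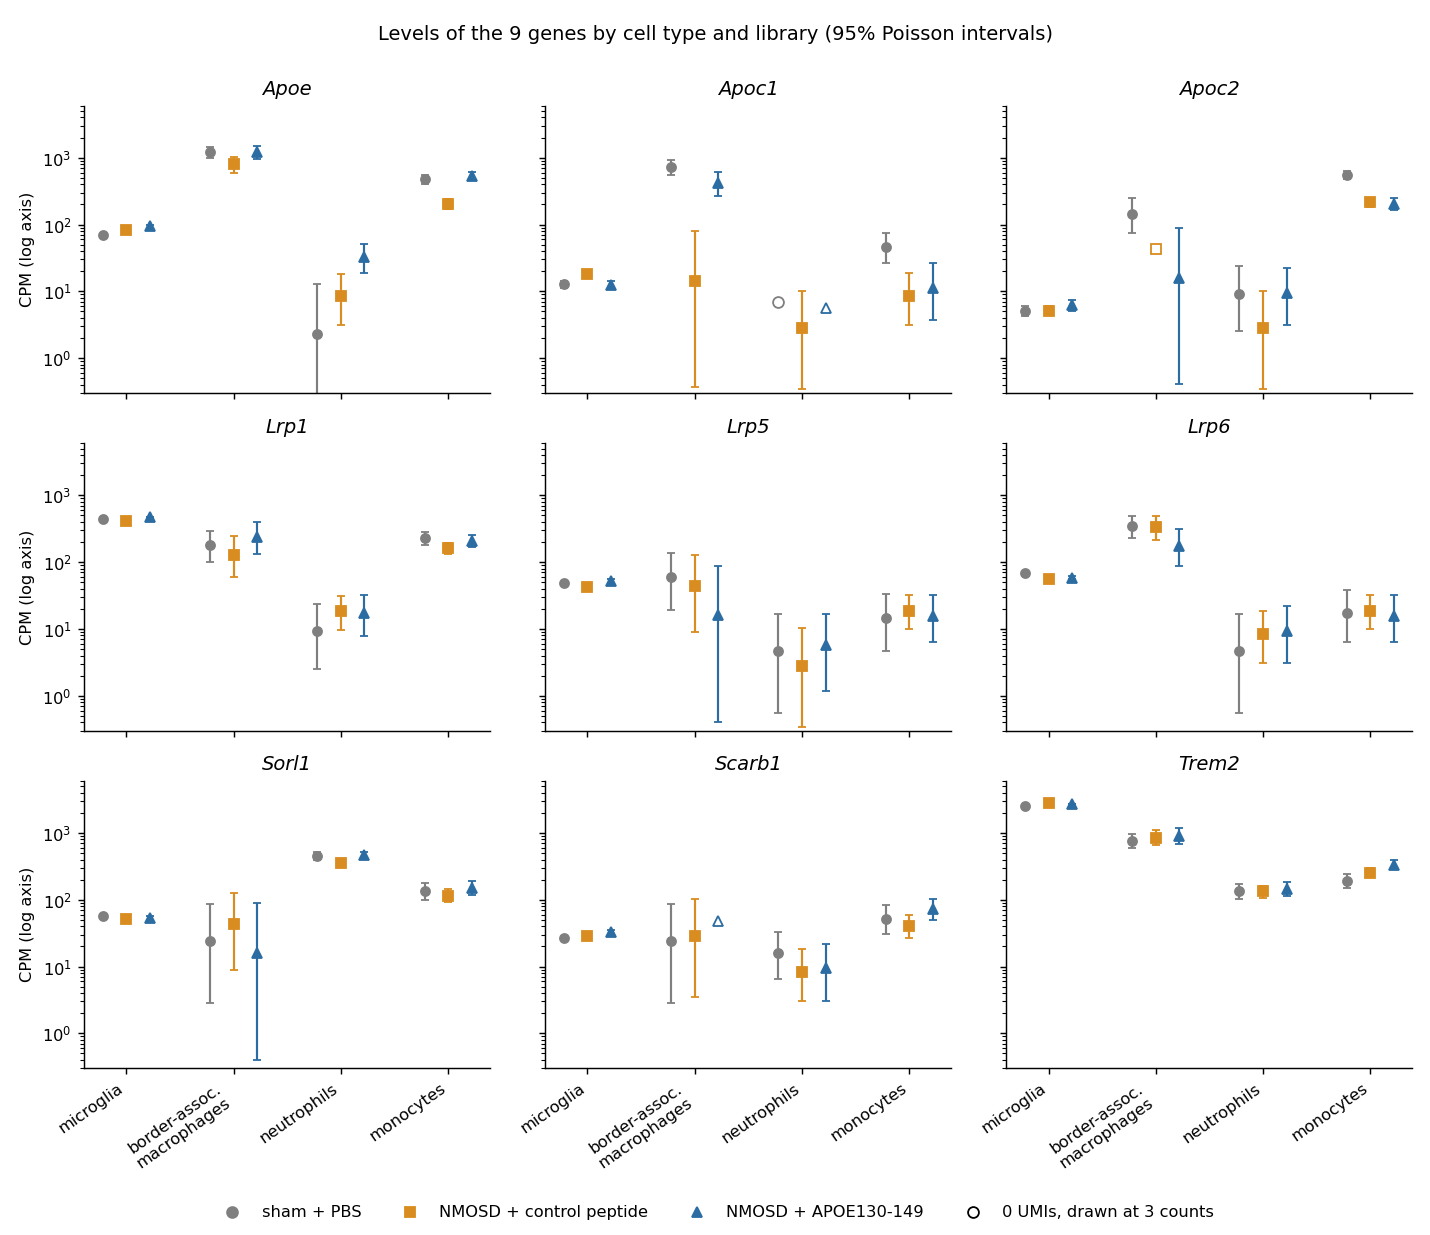
Level of each of the 9 genes (CPM, log axis) in microglia, border-associated macrophages, neutrophils and monocytes of sham (grey circles), control peptide (orange squares) and APOE130-149 (blue triangles). Bars are 95% Poisson intervals, the lower bar of Apoe in sham neutrophils runs off the axis, and open symbols are 0 UMIs drawn at 3 counts. Apoe is highest in border-associated macrophages, Apoc2 in monocytes, Sorl1 in neutrophils, and Lrp1 and Trem2 in microglia, in each library.

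Apoc1 was concentrated in few cells. In border-associated macrophages it stood at 727 CPM [556 to 934] in sham, 14.5 CPM [0.366 to 80.6] with the control peptide and 415 CPM [271 to 607] with APOE130-149. A single cell held 62.3% of these UMIs in sham and 96.2% with APOE130-149, and the control peptide library had 1 UMI in all. Only 2, 1 and 2 cells of the class held Apoc1, so the apparent gap between libraries is one between a handful of cells. Monocytes held 46.4, 8.63 and 11.3 CPM, where 1 sham cell had 87.5% of the UMIs and the sham level was 6.08 CPM without it. In neutrophils there were 0, 2 and 0 UMIs, which allows up to 6.91 CPM in sham and 5.68 CPM with APOE130-149 at 3 counts.

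Apoc2 had its highest level in monocytes in each library. It stood at 557 CPM [481 to 642], 214 CPM [181 to 252] and 203 CPM [164 to 250] in monocytes, against 5.13, 5.16 and 6.21 CPM in microglia. The ratios to microglia were 109 [86.8 to 136], 41.5 [33.3 to 51.6] and 32.8 [24.5 to 43.7]. Monocytes stayed above microglia under all 14 alternatives that give this ratio. UMIs of Apoc2 were in 56.5%, 50% and 63.0% of monocytes and in 8.11%, 3.12% and 10.3% of neutrophils, at median depths of 14950, 13687 and 16550 UMIs against 11289, 9908 and 11627. After thinning to 4000 UMIs they were in 36.4%, 31.8% and 45.8% of monocytes and in 3.23%, 1.85% and 2.63% of neutrophils.

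Sham was the high library for Apoc2 in monocytes, at 2.60-fold the control peptide level [2.09 to 3.24], but 1 sham cell held 50% of the UMIs. Without the top cell of each library the levels were 291, 147 and 170 CPM. When cells above 2 times their library's median of UMIs were left out, the control peptide library was the higher one, with a log2 ratio of 1.56 against -1.38 over all cells. That limit came from all kept cells, with medians of 7124, 7848 and 9991 UMIs, against 14950, 13687 and 16550 in monocytes. Only in sham was the monocyte median above the limit. A larger share of monocytes was thus left out there than with the control peptide, and the cells left were not counted. The share of monocytes with an Apoc2 UMI, given above, did not place sham highest. Border-associated macrophages held 12, 0 and 1 UMIs of Apoc2.

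**Figure D2:**
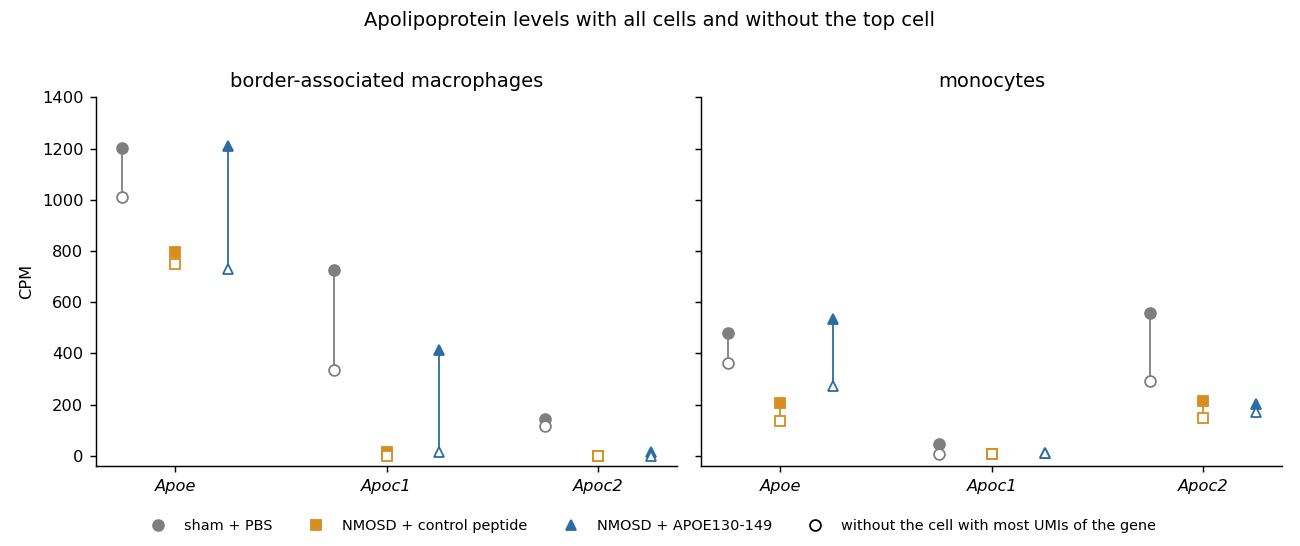
Levels of Apoe, Apoc1 and Apoc2 (CPM) in border-associated macrophages and monocytes, over all cells (filled) and without the 1 cell holding most UMIs of that gene (open), for sham (grey), control peptide (orange) and APOE130-149 (blue). Apoe in APOE130-149 border-associated macrophages is 1212 CPM over all cells and 729 CPM without that cell, beside 750 CPM in the control peptide library without its own.

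Lrp1 had its highest level in microglia in each library. Its levels in microglia were 446 CPM [438 to 454], 420 CPM [413 to 427] and 467 CPM [457 to 477], and 84.4% to 92.9% of microglia held a UMI. Monocytes held 229, 161 and 210 CPM, between 0.383 and 0.514 of the microglial level. Border-associated macrophages held 179, 130 and 239 CPM with intervals that overlap those of monocytes, and neutrophils 9.22, 18.3 and 17.1 CPM. The top neutrophil held 75.0% and 69.2% of these UMIs in sham and with the control peptide.

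The Wnt co-receptors differed from each other outside microglia. Lrp6 was higher in border-associated macrophages than in microglia in each library, at 346 CPM [232 to 496], 333 CPM [211 to 499] and 175 CPM [87.6 to 314] against 68.3, 56.7 and 58.5 CPM. The ratios were 5.06 [3.38 to 7.30], 5.87 [3.71 to 8.83] and 3.0 [1.49 to 5.39], from 29, 23 and 11 UMIs. Without cells holding a choroid plexus or haemoglobin UMI the log2 ratio was 1.49 in place of 2.55 with the control peptide and 0.56 in place of 1.58 with APOE130-149, the last short of 1.5-fold. The border-associated macrophages left by that filter, out of 10 in each of these libraries, were not counted. With no limit on microglial RNA it was 0.93, 1.09 and 0.91. In monocytes Lrp6 was lower than in microglia, at 17.4, 18.7 and 15.8 CPM. Lrp5 showed no such excess in border-associated macrophages, where 5, 3 and 1 UMIs gave 59.6, 43.4 and 15.9 CPM against 48.6, 42.9 and 52.1 CPM in microglia, with overlapping intervals. In monocytes it stood at 14.5, 18.7 and 15.8 CPM, and in neutrophils at 2.81 to 5.68 CPM from 2 or 3 UMIs per library.

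Sorl1 was the 1 receptor of the set with its highest level in neutrophils. Neutrophils held 454 CPM [393 to 522], 356 CPM [313 to 402] and 462 CPM [406 to 524], against 56.6, 52.2 and 53.5 CPM in microglia, which is 8.02-fold [6.88 to 9.31], 6.81-fold [5.95 to 7.76] and 8.63-fold [7.47 to 9.95]. It was spread over the class: 91.9%, 96.9% and 97.4% of neutrophils held a UMI, and no cell had over 5.58% of them. Monocytes came next, at 136, 115 and 151 CPM, and border-associated macrophages had 2, 3 and 1 UMIs. Relative to P2ry12, Sorl1 stood at 3.79, 4.52 and 6.42 in neutrophils and at 0.0208, 0.0203 and 0.0190 in microglia. The part of RNA from other cells in neutrophil Sorl1 was not tested.

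Scarb1 had low levels throughout. Monocytes held 52.2 CPM [31.0 to 82.6], 40.3 CPM [26.8 to 58.2] and 72.3 CPM [49.5 to 102], and microglia 26.7 CPM [24.8 to 28.8], 28.9 CPM [27.2 to 30.7] and 33.0 CPM [30.3 to 35.8]. Monocytes were thus above microglia in sham and with APOE130-149, while the intervals overlap with the control peptide. Neutrophils held 16.1, 8.43 and 9.47 CPM, and border-associated macrophages 2, 2 and 0 UMIs.

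Trem2 was detected in nearly every microglial cell, 99.6%, 99.7% and 99.4%, at 2504 CPM [2486 to 2523], 2833 CPM [2816 to 2850] and 2732 CPM [2707 to 2756]. Border-associated macrophages followed with 763, 853 and 909 CPM, which is 3.01 to 3.32-fold below microglia. Monocytes held 194 CPM [151 to 247], 255 CPM [218 to 295] and 337 CPM [285 to 395], so that APOE130-149 was above sham, 1.73-fold [1.29 to 2.35]. P2ry12 had the same order in monocytes, at 43.5, 57.5 and 92.6 CPM, and the part of microglial RNA in the Trem2 difference was not tested. In neutrophils Trem2 stood at 136, 134 and 146 CPM, 1.13, 1.70 and 2.03 times P2ry12 there, against 0.920, 1.10 and 0.971 times in microglia.

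Set against microglia, Lrp1 and Trem2 were at least 1.5-fold lower in border-associated macrophages of all 3 libraries, as were 15.7% of the 1709 genes with at least 100 CPM in either of the cell types compared in each library. Both depended on the limit on microglial RNA in that class: with no such limit the log2 ratios were -0.38, -0.04 and -0.15 for Lrp1, in place of -1.32, -1.69 and -0.97, and -0.02, -0.14 and -0.20 for Trem2, in place of -1.71, -1.73 and -1.59. With 1 more marker Lrp1 with APOE130-149 was at -0.56, also short of 1.5-fold. In monocytes Lrp1 and Trem2 were lower beside 33.3% of 1908 genes, and in neutrophils beside 56.2% of 1816 genes. Lower levels in neutrophils are thus what most of those genes showed. With APOE130-149, the neutrophil log2 ratio passed 1.5-fold in 12 of 14 alternatives for Lrp1 and 13 of 14 for Trem2. The values nearest to no difference were -0.37 and -0.49, in place of -4.78 and -4.23. Apoe and Lrp6 in border-associated macrophages, Apoe, Apoc2 and Sorl1 in monocytes and Sorl1 in neutrophils were at least 1.5-fold higher in all 3 libraries. They stood under 100 CPM in microglia and reached that level only in the class where they were higher, so their number is not read against the 10.3%, 31.7% and 20.4% of genes that were higher.

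Microglia made up most of each library and allow the comparisons between groups. The first, control peptide against sham, sets NMOSD induction with a peptide against sham induction with PBS. The second, APOE130-149 against control peptide, sets the peptides against each other after NMOSD induction. None of the 8 genes with at least 10 CPM was 1.5-fold apart in any comparison, and Apoc2 was below that level. Of all genes, 2.41% were apart between control peptide and sham, 0.645% between APOE130-149 and control peptide, and 2.95% between APOE130-149 and sham, so a count of 0 among 8 is near the background. The median log2 ratio of the 8 genes was 0.01, 0.10 and 0.08 in these comparisons, beside -0.08, 0.01 and -0.06 over all genes measured. The comparisons share libraries and do not stand for separate evidence.

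Apoe in microglia was 1.18-fold higher with the control peptide than in sham [1.11 to 1.25], and 1.15-fold higher with APOE130-149 than with the control peptide [1.08 to 1.22]. The first of these turned under other settings. When every microglial cell weighed alike, the log2 ratio was -0.26 in place of 0.24, and without cells above 2 times the library's median of UMIs it was -0.10. Without the cells holding a choroid plexus or haemoglobin UMI, which left 3250, 1560 and 660 microglia, it was 0.04. The ratio of APOE130-149 to control peptide kept its direction in all 15 alternatives, with log2 values from 0.14 to 0.33 against 0.20. The bins by depth below were not among these, and it did not keep its direction in all of them.

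The level of Apoe also varied with the depth of the cells, in bins of total UMIs chosen after the data were seen. In microglia under 4000 UMIs sham was highest, at 130 CPM [112 to 151] against 70.3 CPM [53.5 to 90.7] and 57.0 CPM [33.2 to 91.2]. Sham was lowest from 4000 to 8000 UMIs, at 40.1 CPM [35.6 to 45.0] against 46.7 CPM [42.8 to 50.9] and 59.1 CPM [49.4 to 70.1]. The control peptide level there was 1.17-fold that of sham [1.01 to 1.35], and the APOE130-149 level 1.47-fold [1.19 to 1.82]. From 8000 to 16000 UMIs the libraries stood together, at 74.1, 71.3 and 74.8 CPM with overlapping intervals. At 16000 UMIs and over both NMOSD libraries were above sham, at 126 CPM [120 to 132] and 123 CPM [115 to 131] against 81.5 CPM [73.8 to 89.7]. APOE130-149 was above the control peptide from 4000 to 8000 UMIs, 1.27-fold [1.04 to 1.53]. In the other bins, from the lowest, the ratio was 0.810 [0.443 to 1.41], 1.05 [0.942 to 1.17] and 0.975 [0.899 to 1.06]. None of these was beyond counting error, and those of the lowest and the highest bin were below 1. The share of microglia with an Apoe UMI was 26.0%, 30.7% and 35.8%, beside 2.70%, 7.81% and 25.6% of neutrophils. At 4000 UMIs per cell it was 15.9% [14.5 to 17.4], 18.3% [17.0 to 19.6] and 19.0% [16.9 to 21.3]. Cells under 4000 UMIs could not be thinned, which left out 768, 355 and 146 microglia. These are the cells of the lowest bin above, where sham was highest.

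**Figure D3:**
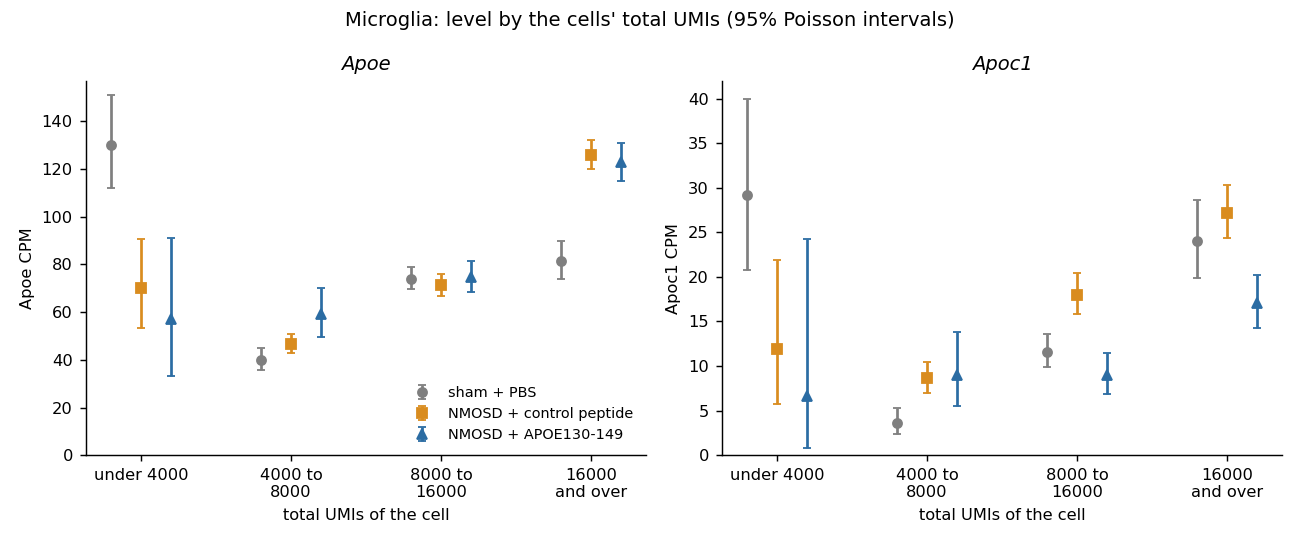
Levels of Apoe and Apoc1 (CPM) in microglia grouped by the total UMIs of the cell, for sham (grey circles), control peptide (orange squares) and APOE130-149 (blue triangles), with 95% Poisson intervals. Sham is highest for Apoe under 4000 UMIs, and lowest from 4000 to 8000 and at 16000 and over.

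Apoc1 had the largest ratios of the 9 genes in the first 2 comparisons of microglia, with levels of 12.7 CPM [11.4 to 14.2], 18.0 CPM [16.7 to 19.5] and 12.6 CPM [11 to 14.4]. The control peptide library was high, 1.42-fold above sham [1.24 to 1.62] and 1.43-fold above APOE130-149 [1.23 to 1.68]. These values rest on few cells: 5.02%, 7.34% and 7.81% of microglia held a UMI, and the 9, 10 and 4 cells with most Apoc1 held 38.5%, 25.1% and 19.9% of them. Without those cells the log2 ratio of control peptide to sham was 0.79 in place of 0.50, and with every cell weighing alike it was -0.05. For APOE130-149 against the control peptide it ran from -0.67 to 0.11 over the alternatives, against -0.52.

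The receptors differed little between the libraries. Lrp1 was at 0.942 of sham with the control peptide [0.920 to 0.964] and 1.11-fold higher with APOE130-149 than with the control peptide [1.08 to 1.14]. Lrp5 was at 0.882 [0.819 to 0.949] and then 1.21-fold higher [1.12 to 1.32], so that its APOE130-149 level, 52.1 CPM, overlapped that of sham, 48.6 CPM. Lrp6 was at 0.830 of sham [0.780 to 0.884] and did not differ beyond counting error between the peptides, at a ratio of 1.03 [0.957 to 1.11]. The same held for Sorl1, with ratios of 0.924 [0.863 to 0.988] and 1.02 [0.947 to 1.11]. Scarb1 was 1.08-fold [0.982 to 1.19] and 1.14-fold [1.03 to 1.26], and only the second interval leaves out 1. Trem2 was 1.13-fold higher with the control peptide than in sham [1.12 to 1.14] and at 0.964 of the control peptide with APOE130-149 [0.954 to 0.975]. Microglia under 4000 UMIs were an exception to the first ratio, with Trem2 at 0.874 of sham with the control peptide [0.831 to 0.920], while the other depth bins gave 1.11 to 1.18-fold. With median-of-ratios factors the log2 ratio of Lrp1 between control peptide and sham was 0.00 in place of -0.09. That of Sorl1 was -0.01 over all cells and as a mean per cell, in place of -0.11. Lrp5 and Lrp6 stayed below sham with the control peptide, and Lrp5 stayed above the control peptide with APOE130-149, at log2 values of 0.23 to 0.31 over those alternatives.

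The narrow intervals of Lrp1 rest on 8202 to 15778 UMIs per library and those of Trem2 on 47964 to 106441, and say nothing of the spread between mice.

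**Figure D4:**
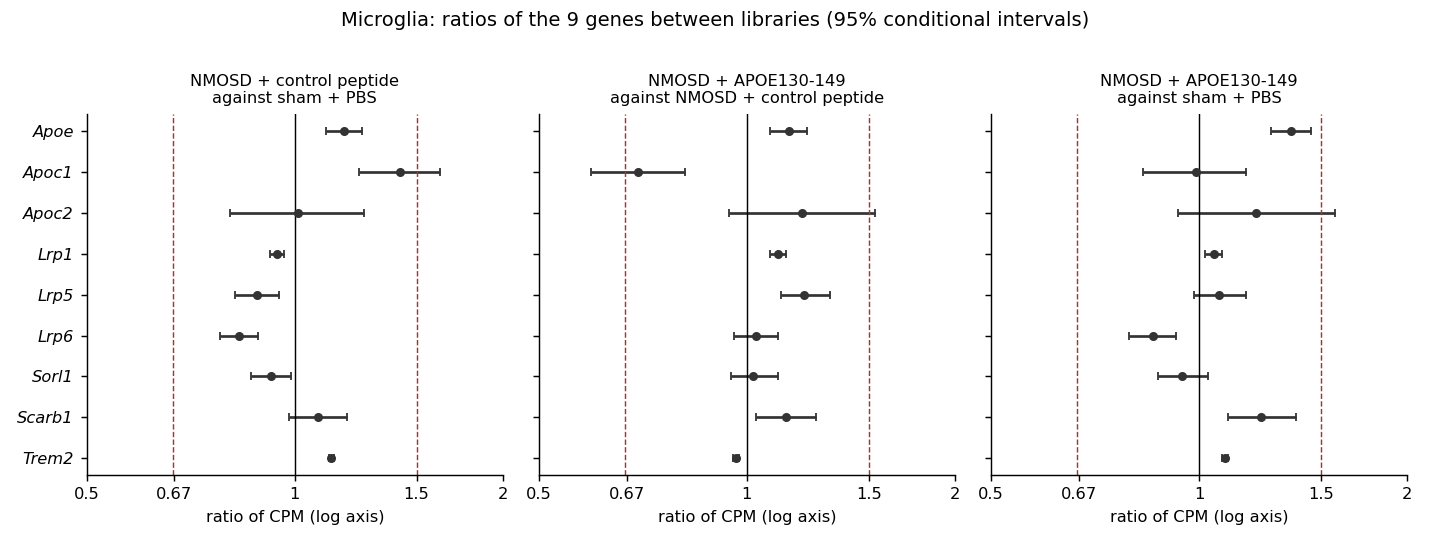
Ratio of CPM between libraries (log axis) for the 9 genes in microglia, in 3 comparisons, with 95% conditional intervals that cover counting error only. Dashed lines mark a 1.5-fold difference in either direction, and every point lies between them.

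Lists of other genes of these pathways placed the 9 genes in context, counted in microglia at 10 CPM or more. Of 5 measured genes among other apolipoproteins and lipid carriers, 1 was higher with the control peptide than in sham, where 1.44% of all genes were higher, and with APOE130-149 than in sham, where 1.69% were. None was higher or lower between the peptides, beside 0.489% and 0.155% of all genes. The lists were chosen with earlier results of these data known, so the count of 1 is not read against these shares. The gene was Lpl, lipoprotein lipase, the enzyme that apoC-II activates, at 48.3, 86.1 and 103 CPM. With the control peptide it was 1.78-fold above sham [1.67 to 1.90], and it was 1.2-fold higher again with APOE130-149 [1.13 to 1.27]. Lpl was not recomputed under the alternatives or by depth. The cholesterol exporters Abca1 and Abcg1, with the highest levels of that list, were not 1.5-fold apart, at 539, 440 and 478 CPM and at 193, 182 and 205 CPM. The median log2 ratio of the list was -0.04 and 0.12 in the first and second comparison.

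Of 7 measured genes among other lipoprotein receptors and adaptors none was 1.5-fold apart in any comparison. The shares of all genes were 2.41% between control peptide and sham, 0.645% between the peptides and 2.95% between APOE130-149 and sham. Counts of 0 in this and the following lists are near these shares. Mylip, a ubiquitin ligase that degrades lipoprotein receptors, stood at 366, 351 and 371 CPM, and the scavenger receptor Stab1 at 239, 190 and 227 CPM. Of 13 measured genes of Trem2 signalling none was apart: its adaptor Tyrobp stood at 2953, 3223 and 3110 CPM and the inhibitory phosphatase Inpp5d at 535, 481 and 498 CPM. Of 10 Wnt signalling genes none was apart, with beta-catenin (Ctnnb1) at 156, 142 and 162 CPM and the kinase Gsk3b at 176, 168 and 165 CPM. The median log2 ratio of control peptide to sham was -0.12, -0.11 and -0.21 in these 3 lists, beside -0.08 over all genes.

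Of 8 measured genes near Apoe on its chromosome none was apart, which is also near the shares of all genes given above. Clptm1 stood at 110, 106 and 115 CPM and Nectin2 at 42.6, 47.2 and 47.0 CPM. Their median log2 ratios were near 0, at 0.02 for APOE130-149 against the control peptide.

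Over the 12 sums of library and cell type, the 5 genes whose log2(CPM + 1) followed Apoe most closely, of 8120 compared, were Dse, Snx2, Apobec1, Shtn1 and Cd74. Their Pearson correlations were 0.97 for the first 4 and 0.96 for Cd74. The points are 4 cell types from 3 libraries, so they share libraries and depth, and the values describe the order of cell types. Of the other members, Apoc1 had the highest correlation with Apoe, 0.82, followed by Lrp6 with 0.74 and Lrp1 with 0.68, and Sorl1 had a negative one, -0.76.

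**Figure D5:**
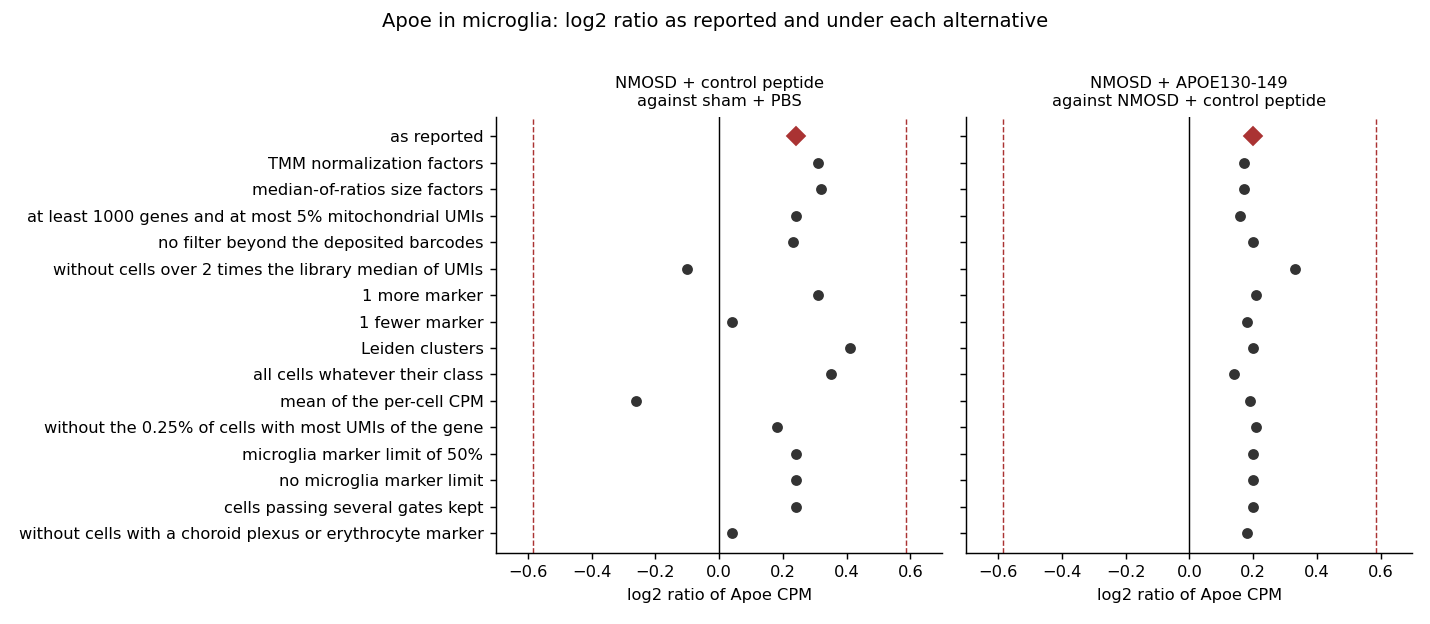
Log2 ratio of Apoe in microglia as reported (red diamonds) and under each alternative (black points), for control peptide against sham and APOE130-149 against control peptide. Dashed lines mark a 1.5-fold difference, and the first ratio lies below 0 under 2 alternatives, at -0.10 and -0.26.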

How the data were processed

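Brain cells sorted as CD45int CD11b+ were profiled by droplet sequencing of transcript 3′ ends, 1 library per group. The deposited matrices hold raw UMI counts per gene and barcode, with no normalization, per the file headers and the whole-number values. Cell Ranger 5.0.1, Seurat 4.3.0 and mm10 were used per the submitters' processing notes, while cellranger 7.0.1 made the matrices per the file headers. Use of introns and of strand: not given in the sources used here. Counted introns would raise long genes such as Lrp1 and Sorl1. The lowest barcode total was 500 UMIs in each library.

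The cell filter was 500 genes or more and 10% mitochondrial UMIs or fewer. Gates required at least 6 of 9 microglia markers, 5 of 10 of border-associated macrophages, 7 of 12 of neutrophils or 5 of 10 of monocytes. Cells of the last 3 had to pass 1 gate only and to hold under 25% of the microglial marker share (the library's microglia median). Microglia had to hold 50% of it and at most 2, 4 and 2 markers of the others. More than 2 markers of any further type left a cell out, except for erythrocytes, whose markers were not used in the gate. No doublet caller was run: 3, 48 and 30 cells passing several gates were left out, and a limit on UMIs was tried.

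UMIs were summed per library and class. The call rule was run on simulated Poisson counts with planted 2-fold changes. These had neither UMIs concentrated in few cells nor a spread between mice, so they check only how the rule is computed. Thinning drew 4000 UMIs from each cell that had as many, left out the other cells, and used seed 1. The genes named were the 9 members, list genes at least 1.5-fold apart and the 2 of highest level of each list, and the 5 genes most like Apoe. The members and lists were chosen with earlier results of these data known, and gate limits after marker counts were seen. TMM factors came from edgeR 4.0.16 and median-of-ratios factors from DESeq2 1.42.0 under R 4.3.3, as scalings only. Python 3.11.15, numpy 2.4.6, scipy 1.17.1, pandas 2.3.3, scanpy 1.11.5 and matplotlib 3.10.9 were used. Gene positions came from a GRCm38 annotation, and promoters from RefSeq.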

Additional observations from a re-analysis of the deposited data

How the results depend on the processing

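Each result was recomputed under up to 16 alternatives, of which 4, on the gates and on choroid plexus or erythrocyte markers, were chosen after seeing the data. The number of members 1.5-fold apart in microglia, 0 as reported, became 1 (Apoc1) for control peptide against sham with median-of-ratios factors, with 1000 genes or more and 5% mitochondrial UMIs or fewer, with 1 more marker and without the 0.25% of cells with most UMIs of the gene. For APOE130-149 against control peptide it became 1 (Apoc1) without cells over 2 times the median of UMIs and with 1 fewer marker. For APOE130-149 against sham it became 2 (Apoe and Apoc2) with Leiden clusters. The log2 ratio of Apoe in microglia, control peptide against sham, was 0.24 and moved to 0.32 with median-of-ratios factors, -0.10 without cells over 2 times the median, 0.04 with 1 fewer marker, 0.41 with Leiden clusters, 0.35 over all cells, -0.26 as a mean per cell and 0.04 without cells with a choroid plexus or erythrocyte marker. For APOE130-149 against control peptide it was 0.20 and moved to 0.33 without cells over 2 times the median. The ratio of Apoe in border-associated macrophages, APOE130-149 against control peptide, was 0.61 and turned to -0.04 without the top cells and to -1.47 without cells with a choroid plexus or erythrocyte marker. That of Apoc2 in monocytes, control peptide against sham, was -1.38 and turned to 1.56 without cells over 2 times the median. This limit took a larger share of monocytes in sham. The cells left in these classes by the filters on UMIs and on choroid plexus or erythrocyte markers were not counted. The causes were not tested.

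Genes 1.5-fold apart over the whole table numbered 204, 54 and 251, and 5315, 5345 and 5959 with no minimum level. No Leiden cluster took the border-associated macrophage class, so that alternative gives no value for it. No paired analysis was possible because each group is 1 library. Levels in the 9 or 10 border-associated macrophages of a library rest on 62717 to 83894 UMIs. There 3 counts, the limit used for a gene with 0 UMIs, are 35.8 to 47.8 CPM. Larger differences between libraries can also lie within counting error. Lrp6 at 175 CPM with APOE130-149 and 333 CPM with the control peptide gave a ratio of 0.527 [0.232 to 1.13].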
